A study of Mus musculus with 6 samples.

Results

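Rgcc, 1700037H04Rik, Calcb, Gda and Mmadhc are 5 of the 14975 genes listed for platelet RNA of control and pre-AML mice. They were chosen by their rank in the comparison of these groups: among 4412 genes tested with limma-trend (a linear model of log2 values with a spread shared across genes) and ordered by p, Rgcc stood at rank 2, Calcb at 5, 1700037H04Rik at 8, Mmadhc at 9 and Gda at 11. Rank 1 was held by Gzma, and ranks 3, 4, 6, 7 and 10 by Mir1904, Ube2a, Rps15a-ps6, Sec23a and Gm10658, which are not among the 5. The difference between the groups is therefore what chose these genes, and their own values are given as a description. The lowest ranked of the 5, Gda, had a log2 difference of -0.61 (pre-AML minus control), and the next gene in the order, Ube2d3 at rank 12, had -0.58, so that nothing separates the last gene inside from the first outside.

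The control libraries came from C57BL/6 mice labelled WT, which per the study had been irradiated and transplanted with normal bone marrow. The pre-AML libraries came from C57BL/6 mice labelled AML. Per the study, these had been irradiated sub-lethally and given leukemia cells transformed with a retrovirus for MLL-AF9, a fusion oncogene of acute myeloid leukemia (AML), and the study names the time 1 week after transplantation pre-AML. Platelets of peripheral blood were freed of cells with CD45 or Ter119, and 3 libraries per group were made. The labels give no week, the design text counts 2 replicates a group, each pooled from 3 to 4 mice, and the methods speak of independent mice, so that p-values measure only the spread between these libraries. The host's own hematopoietic cells were not marked in these files.

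Platelets have no nucleus, and their RNA is mostly what the megakaryocyte packed into them. The 5 genes have no pathway in common. Rgcc (regulator of cell cycle, also called response gene to complement 32) encodes a protein that binds the mitotic kinase CDK1 and is known from endothelial cells and leukocytes. Calcb encodes the beta form of calcitonin gene-related peptide (CGRP), a vasodilator peptide best known from sensory neurons. Gda encodes guanine deaminase, which turns guanine into xanthine in purine breakdown. Mmadhc encodes a protein of vitamin B12 (cobalamin) handling, which decides whether the vitamin goes to the cytosol for methionine synthase or to mitochondria for methylmalonyl-CoA mutase. 1700037H04Rik is a protein-coding gene still named after a cDNA clone, and no role for it is given here.

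Values are FPKM (reads scaled by gene length and by sequencing depth), as deposited. With exon lengths of GENCODE M21, 81.8% of the values above 0 were whole multiples of 1 read within 0.02 reads, and this held for all 5 genes in all 6 libraries, so their reads could be recovered. The libraries held between 11936010 and 17778985 reads on listed genes. The divisor behind the FPKM values exceeded these reads 1.31 times in pre-AML 3 and was 0.983 to 1.01 of them elsewhere. Pre-AML 3 also stood apart in leukocyte transcripts. The summed FPKM of 8 listed B cell markers was between 1.73 and 1.92 in the controls and was 1.03, 19.8 and 227.6 in pre-AML 1 to 3. Platelet markers summed to between 88976 and 113009 in the controls and between 60838 and 91505 in pre-AML platelets, with none of the 10 at 0 throughout a group. The lowest sum was that of pre-AML 3. Pf4 and Ppbp made up most of the sums, with means of 66487 and 17958 FPKM in control and 52520 and 13896 FPKM in pre-AML platelets. Of the 10 markers, 3 had a log2 difference above 0 and 7 below. Since these are bulk samples, fewer cells of a type and less RNA per cell cannot be told apart.

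Windows of 250 bases before the start of Rgcc, 1700037H04Rik and Gda are shown to describe their letters, whose relation to the direction of change was not tested. They are taken from RefSeq promoters of build GRCm38.p6, each on the minus strand and written 5′ to 3′, and 3 of the 5 genes matched an entry (Calcb and Mmadhc did not). Capitals mark matches on either strand to GGGCGG, the core bound by SP factors. The windows lie at chr14:79301636-79301885, chr2:131160082-131160331 and chr19:21472662-21472911.
Rgcc: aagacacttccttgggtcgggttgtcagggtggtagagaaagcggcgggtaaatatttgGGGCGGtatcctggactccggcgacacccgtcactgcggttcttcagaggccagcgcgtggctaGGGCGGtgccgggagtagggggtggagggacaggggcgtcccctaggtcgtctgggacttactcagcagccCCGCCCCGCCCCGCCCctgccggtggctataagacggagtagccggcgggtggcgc
1700037H04Rik: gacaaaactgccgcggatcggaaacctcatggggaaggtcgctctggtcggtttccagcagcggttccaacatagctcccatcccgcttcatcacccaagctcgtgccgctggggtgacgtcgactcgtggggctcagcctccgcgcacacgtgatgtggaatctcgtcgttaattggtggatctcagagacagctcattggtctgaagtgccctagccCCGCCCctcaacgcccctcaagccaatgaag
Gda: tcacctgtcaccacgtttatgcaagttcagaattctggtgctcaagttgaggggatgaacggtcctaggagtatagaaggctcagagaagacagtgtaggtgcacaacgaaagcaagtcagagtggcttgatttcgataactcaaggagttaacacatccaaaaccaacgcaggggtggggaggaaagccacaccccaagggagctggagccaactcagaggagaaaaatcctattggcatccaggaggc
The Rgcc window held 5 matches, between 46 and 191 bases before the start, the 1700037H04Rik window held 1, at 31 bases, and the Gda window held 0. Of 32851 promoter windows of the same length, 32.7% held this motif. The letters AGATAA (bound by GATA factors, in 9.99% of windows), CCGGAA (ETS factors, in 12.0%) and TGTGGT (RUNX factors, in 14.0%), of regulators known from megakaryocytes, were searched on both strands and were in none of the 3 windows. The GC content was 66.8% for Rgcc, 59.6% for 1700037H04Rik and 50% for Gda, against a median of 52.4% over all windows. A match is a description of letters, and 0 matches say nothing of a factor. The Gda start of RefSeq lies inside the longer GENCODE gene.

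Rgcc, on chromosome 14 from 79288756 to 79301645 (GRCm38, GENCODE M21, minus strand, 5 exon blocks), had 0.464, 0.697 and 0.366 FPKM in control 1 to 3 and 2.21, 3.25 and 2.57 FPKM in pre-AML 1 to 3. All 3 pre-AML libraries thus lay above all controls, and the lowest pre-AML value exceeded the highest control by 1.51 FPKM. The control mean was 0.509 ± 0.170 FPKM and the pre-AML mean 2.68 ± 0.528 FPKM (SD, n = 3 each), a ratio of 5.26. On the log2(FPKM + 1) scale, which understates the change of low genes, the difference was 1.28 (standard error 0.19). These levels rest on few reads. The controls held 5, 9 and 4 reads of Rgcc and the pre-AML libraries 27, 45 and 55. The exact 95% Poisson interval of counting error was 0.319 to 1.32 FPKM in control 2, the highest control. It was 1.46 to 3.22 FPKM in pre-AML 1, the lowest pre-AML library. The intervals of these nearest libraries did not meet, but the same contrast chose Rgcc, so nothing is read from this. PCR reads without molecular identifiers are not independent molecules, so intervals and floors cover counting error only. The control mean was under the filter of 1 FPKM, and Rgcc entered the test only through its pre-AML values, where it was at the 33.5th percentile of tested genes.

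1700037H04Rik, on chromosome 2 from 131146324 to 131160081 (minus strand, 8 exon blocks), was the most abundant of the 5. It had 32.7, 32.8 and 33.3 FPKM in control 1 to 3 and 45.9, 47.6 and 47.9 FPKM in pre-AML 1 to 3. The groups did not overlap, and the gap between them was 12.5 FPKM. The control mean was 33.0 ± 0.339 FPKM and the pre-AML mean 47.1 ± 1.11 FPKM (SD, n = 3 each), a ratio of 1.43 and a log2 difference of 0.50 (standard error 0.12). The control level exceeded that of 82.8% of tested genes. The spread among the controls, a coefficient of variation of 1.03%, was smaller than the 3.26% that counting 878, 1055 and 907 reads gives alone. Among tested genes, 0.341% varied less. An SD of 3 libraries is imprecise, so nothing is read from this.

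Calcb, on chromosome 7 from 114718643 to 114723365 (plus strand, 6 exon blocks), was lower in pre-AML platelets. Its FPKM was 2.49, 3.65 and 3.12 in control 1 to 3 and 1.25, 1.52 and 1.36 in pre-AML 1 to 3. Every pre-AML library was below every control, by at least 0.973 FPKM. The control mean was 3.09 ± 0.581 FPKM and the pre-AML mean 1.38 ± 0.137 FPKM (SD, n = 3 each), a control level 2.25 times the pre-AML level and a log2 difference of -0.78 (standard error 0.16). The controls held 37, 65 and 47 reads and the pre-AML libraries 21, 29 and 40. Here the counting intervals of the nearest libraries met, with 1.76 to 3.44 FPKM in control 1 and 1.02 to 2.18 FPKM in pre-AML 2.

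Gda, on chromosome 19 from 21391307 to 21473445 (minus strand, 16 exon blocks), had 9.36, 8.37 and 8.24 FPKM in control 1 to 3 and 5.80, 5.92 and 4.36 FPKM in pre-AML 1 to 3. The pre-AML libraries were all lower, and pre-AML 3 was the lowest of them. The control mean was 8.65 ± 0.615 FPKM and the pre-AML mean 5.36 ± 0.869 FPKM (SD, n = 3 each), a control level 1.61 times the pre-AML level and a log2 difference of -0.61 (standard error 0.15). With 481 to 734 reads in a library, counting alone gives a coefficient of variation of 3.85% in the controls and 4.26% in pre-AML platelets, where 7.11% and 16.2% were seen. Scaled to reads per 1000000 reads on listed genes (RPM), pre-AML 3 held 35.7 RPM of Gda, beside 35.5 and 37.4 in pre-AML 1 and 2, so that its lower FPKM is not seen on that scale.

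Mmadhc, on chromosome 2 from 50279881 to 50296801 (minus strand, 8 exon blocks), had 9.10, 7.66 and 6.56 FPKM in control 1 to 3 and 5.19, 4.41 and 4.11 FPKM in pre-AML 1 to 3. The groups did not overlap, with 1.36 FPKM between control 3 and pre-AML 1. The control mean was 7.78 ± 1.28 FPKM and the pre-AML mean 4.57 ± 0.558 FPKM (SD, n = 3 each), a pre-AML level 0.588 times the control level and a log2 difference of -0.65 (standard error 0.16). Reads ran from 157 to 217 in the controls and from 134 to 193 in pre-AML platelets.

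**Figure D1:**
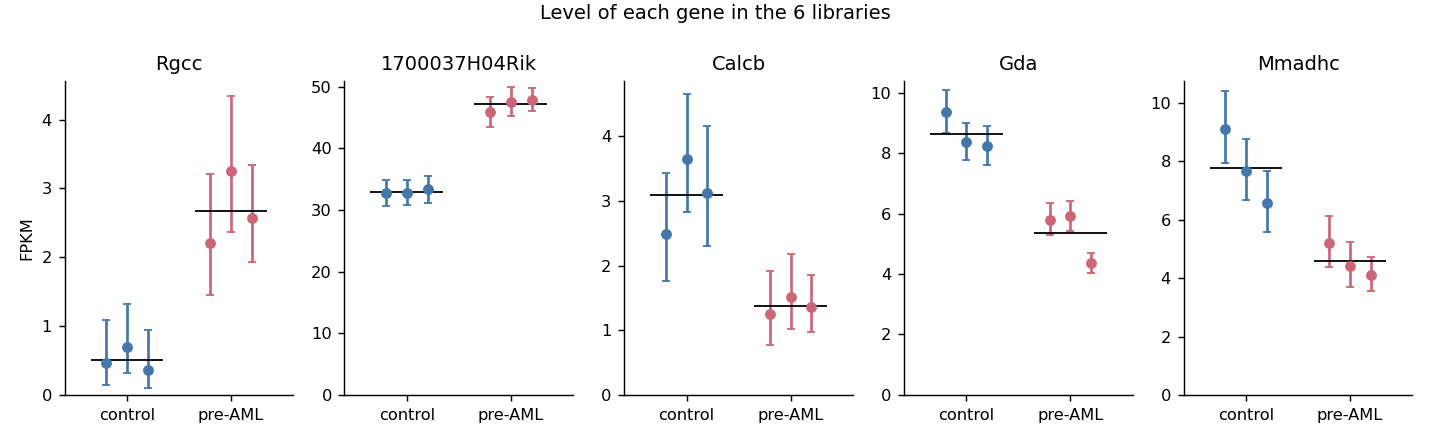
FPKM (vertical axes, from 0) of the 5 genes in control (blue) and pre-AML (red) libraries, with replicates 1 to 3 from left to right. Bars are exact 95% Poisson intervals of counting error and horizontal lines are group means. The groups do not overlap in any of the 5 genes, and the bars are widest relative to the level for Rgcc and Calcb, which have the fewest reads.

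By level in control platelets, the order was 1700037H04Rik, Gda, Mmadhc, Calcb and Rgcc. Gda (8.24 to 9.36 FPKM) and Mmadhc (6.56 to 9.10 FPKM) overlapped, and no other neighbours in this order did. In pre-AML platelets the order of Calcb and Rgcc was the other way around, at 1.25 to 1.52 and 2.21 to 3.25 FPKM. Gda and Mmadhc overlapped there too.

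Among the 4412 tested genes, 1 (0.0227%) had an adjusted p under 0.05 (limma-trend with Benjamini-Hochberg adjustment), and it was Gzma. In the same limma-trend fit, the adjusted p was 0.238 for Rgcc and 0.522 for each of the other 4, so that 0 of 5 passed. The ranks follow the unadjusted p. At an unadjusted p under 0.05 all 5 were counted, beside 2.56% of tested genes that were higher and 6.53% that were lower in pre-AML platelets. All pre-AML values lay above all control values in 6.14% of tested genes and below them in 12.8%, and the 2 higher and 3 lower members are among these. Since the same contrast chose the members, nothing is read from these counts.

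**Figure D2:**
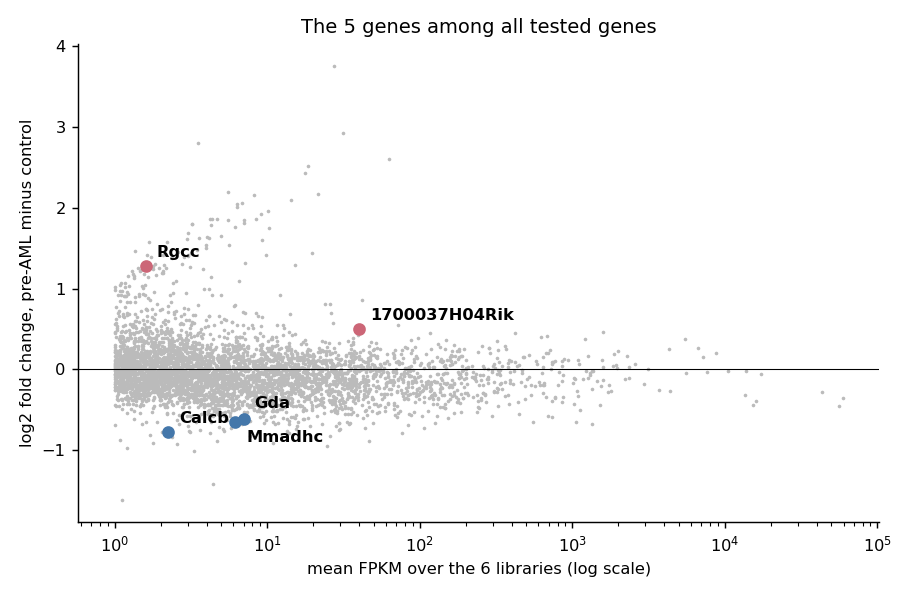
Log2 fold change (vertical axis, pre-AML minus control, on the log2(FPKM + 1) scale) against mean FPKM over the 6 libraries (horizontal log axis) for the 4412 tested genes. The members are named: Rgcc lies at 1.28 and 1700037H04Rik at 0.50, and Calcb, Mmadhc and Gda lie between -0.78 and -0.61.

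Because the FPKM values of pre-AML 3 were divided by a larger number than its reads, the members were also set out in RPM. Rgcc had 0.334 to 0.649 RPM in control and 1.99 to 3.09 in pre-AML platelets. For 1700037H04Rik, the controls stayed within 73.6 to 76.0 while pre-AML 1, 2 and 3 held 103.0, 110.2 and 143.8, so that the closeness of the pre-AML libraries in FPKM was not seen here. Calcb had 3.10 to 4.68 in control and 1.55 to 2.25 in pre-AML platelets. Mmadhc had 13.1 to 18.0 in control and 8.99 to 10.9 in pre-AML platelets. None of the 5 genes overlapped between the groups on this scale. The share of all tested genes without overlap was not computed in RPM. Since the same contrast chose the members, nothing is read from this.

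**Figure D3:**
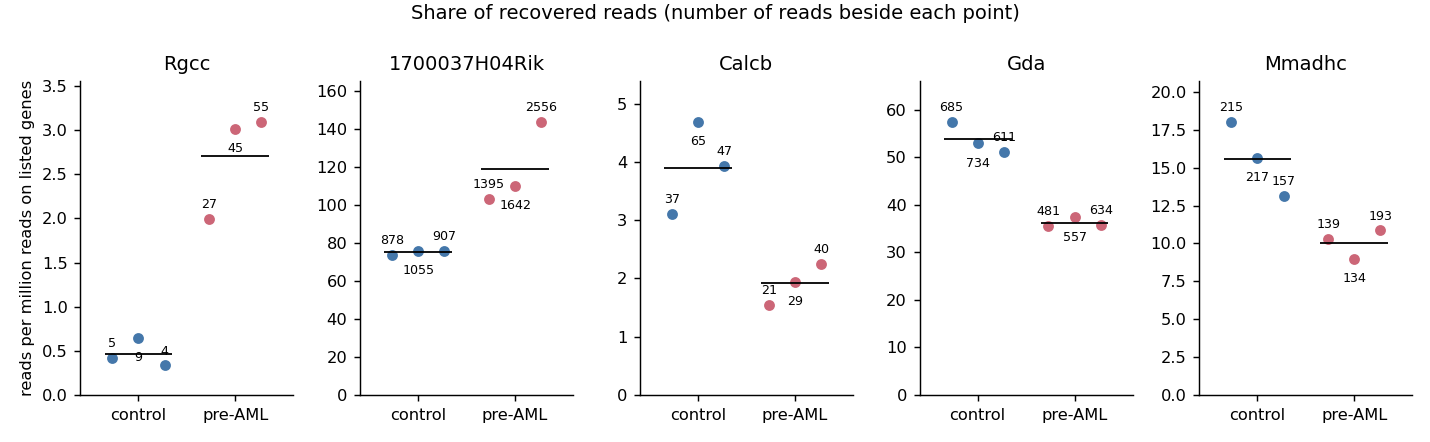
RPM on listed genes (vertical axes, from 0) for each gene and library, with the number of recovered reads beside each point and lines at group means. On this scale pre-AML 3 stands apart for 1700037H04Rik, with 2556 reads or 143.8 RPM, and is level with the other pre-AML libraries for Gda.

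The direction of the members went with their GC content. The longest transcript had 54.2% GC in Rgcc and 54.6% in 1700037H04Rik, both higher in pre-AML platelets, and 49.2% in Calcb, 45.4% in Mmadhc and 42.7% in Gda, all lower. Over the 4397 tested genes with a gene model, the median was 49.8%. Over all these genes, the median log2 difference was -0.25 in the 1100 genes of lowest GC content (31.2% to 45.0%), -0.098 and -0.0031 in the next bins of 1099, and 0.12 in the 1099 of highest (54.2% to 70.0%). After loess trends on exon length and GC content were taken out of every library, the differences were 1.26 for Rgcc, 0.46 for 1700037H04Rik, -0.66 for Calcb, -0.44 for Mmadhc and -0.38 for Gda. Gda moved most and Rgcc least. Their part in the differences was not tested beyond this. Exon length was 918 bases in Rgcc, 1264 in Calcb, 2012 in Mmadhc, 2286 in 1700037H04Rik and 6235 in Gda, beside a median of 3553.

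The summed FPKM of 11 T and NK cell markers was 19.1 to 29.0 in control and 34.4 to 40.6 in pre-AML platelets, with Cd3g, Ncr1 and Prf1 at 0 in all controls and no marker at 0 in all pre-AML libraries. Most of it was Nkg7, at 18.9 to 28.2 and 22.6 to 27.9 FPKM, and Gzma was part of the rest. The 10 monocyte and macrophage markers summed to 2385 to 2616 and 2340 to 3315 FPKM. Lyz2 made up most of this, and Ccr2 and Ly86 were at 0 in all controls. Tyrobp, the second most abundant, was at 0.126 to 0.533 FPKM in the controls and at 4.85, 4.37 and 153.3 FPKM in pre-AML 1 to 3. Rgcc in pre-AML 1 to 3 was at 2.21, 3.25 and 2.57 FPKM, or 1.99, 3.02 and 3.09 RPM, and its log2 difference was 1.30 without pre-AML 3. The T and NK cell sum was above all controls in each pre-AML library, at 38.2, 34.4 and 40.6 FPKM. Gzma, rank 1 of the contrast that also chose Rgcc, was 7.25, 4.61 and 8.90 FPKM of this. In the controls Gzma was at most 0.353 FPKM. In FPKM, pre-AML 2 had the highest Rgcc level and the lowest T and NK cell sum of the pre-AML libraries. In RPM, Rgcc was highest in pre-AML 3, so its order among these libraries depended on the scaling. For the 8 endothelial markers, where Rgcc is also known, sums were 56.9 to 67.6 FPKM in control and 59.4 to 69.0 FPKM in pre-AML platelets, with none at 0 throughout a group and Plvap and Tie1 the highest. The 9 neutrophil markers summed to at most 3.49 FPKM in any library, with Mpo, Retnlg and Elane at 0 in the controls. The 5 listed erythroid markers summed to 2350 to 2652 and 2377 to 2991 FPKM. The part of these transcripts in the levels of the 5 genes was not tested.

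The CGRP system was followed from ligand to receptor. Calca, which encodes the alpha form of CGRP and calcitonin and lies 82286 bases from Calcb, held 4, 1 and 0 reads in control 1 to 3 and 2, 2 and 0 reads in pre-AML 1 to 3, at or near the 3 reads taken as the floor, so that no difference could be detected. Of the 50-base stretches of Calcb transcripts, 0.952% also occur in Calca, and Calca held at most 4 reads in a library. The receptor for CGRP is formed by Calcrl, a G protein-coupled receptor, and Ramp1, its accessory protein. Both were more abundant than the ligand. Ramp1 had 27.7, 31.7 and 34.8 FPKM in control 1 to 3 and 45.2, 39.0 and 39.3 FPKM in pre-AML 1 to 3. Calcrl had 19.3, 21.0 and 21.9 FPKM in the controls and 16.3, 18.6 and 7.53 FPKM in the pre-AML libraries. The groups overlapped for neither gene, with Ramp1 higher and Calcrl lower in pre-AML platelets. Of all tested genes, 6.14% lay wholly above and 12.8% wholly below the controls, so nothing is read from this. The log2 differences were 0.38 (standard error 0.14) for Ramp1 and -0.61 (standard error 0.29) for Calcrl, and neither, at 0.522 (limma-trend, adjusted p of both), passed the threshold. Ramp1 was at 0.42 without pre-AML 3, while Calcrl was at -0.24 without pre-AML 3 and at -0.25 after the loess correction. Of the 10 genes set beside Calcb (Calca, other ligands of the family, receptors and Crcp), 8 were listed and 3 tested, of which 0 passed the adjusted threshold and 1 was higher and 0 lower at an unadjusted p under 0.05, beside 2.56% and 6.53% of all tested genes. Their median log2 difference was -0.10, against -0.055 for all tested genes. Crcp, a component once named for CGRP receptors, had a control mean of 15.8 ± 2.25 FPKM and a pre-AML mean of 14.9 ± 3.75 FPKM (SD, n = 3 each).

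For Gda, 26 genes of purine salvage and breakdown and their nucleotidases were set beside it, of which 10 were tested. None had an adjusted p under 0.05, and 0 were higher and 2 lower at an unadjusted p under 0.05, beside 6.53% of all tested genes that were lower. The median log2 difference was 0.075, against -0.055 for all tested genes. The same 2 of 10 had all pre-AML values below all controls, which 12.8% of all tested genes had, so nothing is read from these counts. Nt5c3, a cytosolic nucleotidase that prefers pyrimidine nucleotides, had 143.0, 123.9 and 126.2 FPKM in control 1 to 3 and 95.1, 92.6 and 54.9 FPKM in pre-AML 1 to 3. The log2 difference was -0.73 with a standard error of 0.22 (limma-trend, adjusted p = 0.522), -0.47 without pre-AML 3 and -0.46 with the GC and length trends removed. Impdh1, an enzyme of guanine nucleotide synthesis, had 9.67, 7.01 and 4.01 FPKM in the controls and 2.85, 3.64 and 3.85 FPKM in pre-AML platelets, a log2 difference of -0.77 (standard error 0.26) with the same adjusted p. Control 3 and pre-AML 3 nearly met. Gmpr, which returns GMP to IMP, was the most abundant gene of the list, with a control mean of 135.3 ± 13.6 FPKM and a pre-AML mean of 144.1 ± 10.2 FPKM (SD, n = 3 each). Pnp, which releases the guanine that Gda uses, was at 1.13 ± 0.0910 and 1.30 ± 0.532 FPKM (SD, n = 3 each).

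Of the 23 symbols set beside Mmadhc for the uptake, processing and use of cobalamin, 19 were listed and 4 tested, Tcn2, Thap11, Lmbrd1 and Mcee. None passed the adjusted threshold, and 0 were higher and 0 lower at an unadjusted p under 0.05. Of all tested genes, 2.56% were higher and 6.53% lower at that limit, so with 4 genes nothing is read from these counts. Mcee, which encodes the epimerase just before methylmalonyl-CoA mutase, had 12.7, 8.03 and 9.32 FPKM in the controls and 9.51, 8.25 and 8.97 FPKM in the pre-AML libraries. Lmbrd1, part of the lysosomal exporter of cobalamin, was at 1.08 ± 0.0960 and 0.962 ± 0.351 FPKM (SD, n = 3 each). Tcn2, the carrier of cobalamin in plasma, had 7.0, 3.78 and 5.09 FPKM in the controls and 4.90, 4.6 and 27.1 FPKM in pre-AML 1 to 3, so that its log2 difference of 0.66 (standard error 0.56) became -0.099 without pre-AML 3. Thap11, a transcription factor of the pathway, had 0.515, 0.781 and 0.462 FPKM in the controls and 0.661, 0.984 and 4.01 FPKM in pre-AML 1 to 3. The median log2 difference of the 4 genes was 0.28, and its sign rested on pre-AML 3: without that library only Mcee and Tcn2 were tested, at -0.14 and -0.099.

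For Rgcc, 15 genes of CDK1 activity and entry into mitosis were listed and 2 were tested, Cdkn1a and Trp53. Cdc25b, the next in level, was under the filter, with 0 to 0.648 FPKM in control and 0.373 to 1.07 FPKM in pre-AML platelets. Cdkn1a, a CDK inhibitor, had 6.55, 10.9 and 12.9 FPKM in control 1 to 3 and 10.4, 13.8 and 22.1 FPKM in pre-AML 1 to 3, with overlapping groups and a log2 difference of 0.55 with a standard error of 0.30 (limma-trend, adjusted p = 0.526). Without pre-AML 3 it was 0.27. Trp53, the gene of p53, had 0.548, 0.668 and 0.582 FPKM in the controls and 0.948, 0.770 and 2.65 FPKM in pre-AML 1 to 3. Its groups did not overlap, but it passed the filter only through pre-AML 3. In this list 0 genes passed either threshold, beside 2.56% of all tested genes higher and 6.53% lower at an unadjusted p under 0.05. With 2 genes, nothing is read from this count. The median log2 difference of the 2 genes was 0.54, while without pre-AML 3 Cdkn1a alone was left, at 0.27.

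**Figure D4:**
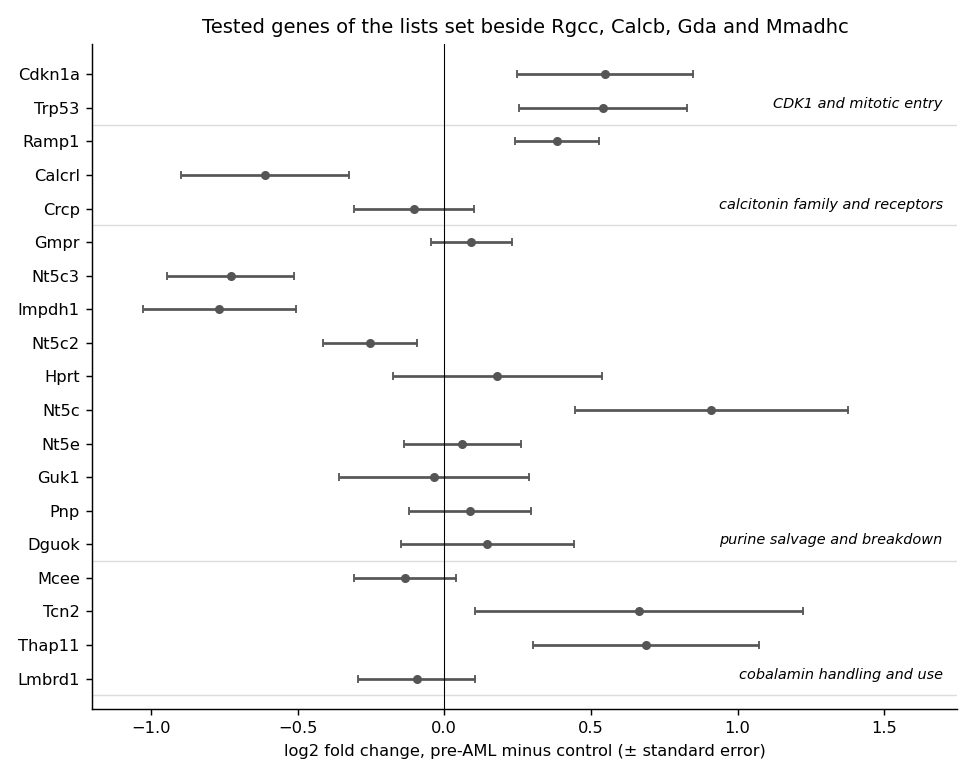
Log2 fold change (horizontal axis, pre-AML minus control) with its standard error for the 19 tested genes of the lists set beside Rgcc, Calcb, Gda and Mmadhc, ordered by level within a list. Ramp1 lies at 0.38 and Calcrl at -0.61, Nt5c3 and Impdh1 lie at -0.73 and -0.77, and of the cobalamin genes Tcn2 and Thap11, highest in pre-AML 3, lie above 0.

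The nearest listed genes on the chromosome were mostly too low to be tested. Of 10 neighbours, 2 per member, 9 had a mean under 1 FPKM. Hspa12b, 3 bases from the end of 1700037H04Rik, was at 0.137 to 0.598 FPKM in control and 0.143 to 0.256 FPKM in pre-AML platelets, against the 32.7 FPKM or more of 1700037H04Rik. Gm13483, 9 bases from the start of Mmadhc and on the other strand, was at most 0.565 FPKM in any library. Zfand5, 104467 bases from Gda, was tested. It had 6.10, 5.67 and 7.0 FPKM in control and 4.64, 4.25 and 3.16 FPKM in pre-AML 1 to 3, a log2 difference of -0.54 with a standard error of 0.16 (limma-trend, adjusted p = 0.522), so that the groups did not overlap but the threshold was not passed. Gm14232, annotated opposite 1700037H04Rik, shared 0 exon bases with it, and 50-base stretches shared with other genes made up 0.405% of Gda and 0% of Rgcc, 1700037H04Rik and Mmadhc.

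Genes with the pattern most like that of each member were found by Pearson's r of log2(FPKM + 1) over the 6 libraries, as a description. For Rgcc these were 1700037H04Rik (r = 0.977), H2aj (0.975) and Mknk2 (0.970). For 1700037H04Rik they were Ost4, Diras2 and Txnl4b (0.985, 0.984 and 0.980). The control mean of Ost4, a small subunit of the oligosaccharyltransferase, was 98.5 FPKM and the pre-AML mean 134.9 FPKM. For Calcb they were Crot, Usp38 and Sec23a (0.996, 0.990 and 0.980), for Gda Cd96, Ube2d3 and Cr1l (0.997, 0.996 and 0.995), and for Mmadhc C330018D20Rik, Tsg101 and Gm5111 (0.997, 0.990 and 0.990). An r of at least 0.95 was reached by 11 other genes for Rgcc, 11 for 1700037H04Rik, 8 for Calcb, 26 for Mmadhc and 70 for Gda, of 4411. The points share the libraries and their scaling, and the members of a list drawn from the same contrast share its 2 levels.

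The rank of a member depended on the setting more than its direction did. Rgcc kept rank 2 to 8 in all 15 alternatives that tested it, with log2 differences from 1.17 to 2.30. Its adjusted p from limma ranged from 0.0161 to 0.732 over the alternatives. The lowest came with libraries weighted by their spread. There pre-AML 2, the library with the highest Rgcc level in FPKM, had a weight of 4.35 and pre-AML 3 a weight of 0.208. The others had weights between 0.813 and 1.27. Without pre-AML 3 the adjusted p from limma was 0.0684. These p-values come from the contrast that chose Rgcc, which passed the filter only through its pre-AML values, so they are a description and support nothing. 1700037H04Rik ranged from rank 4 to 113, Calcb from 3 to 70, Gda from 6 to 58 and Mmadhc from 12 to 77. The signs of all 5 were kept in every alternative that tested them. Rgcc and Calcb were not tested with a mean of at least 5 FPKM.

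**Figure D5:**
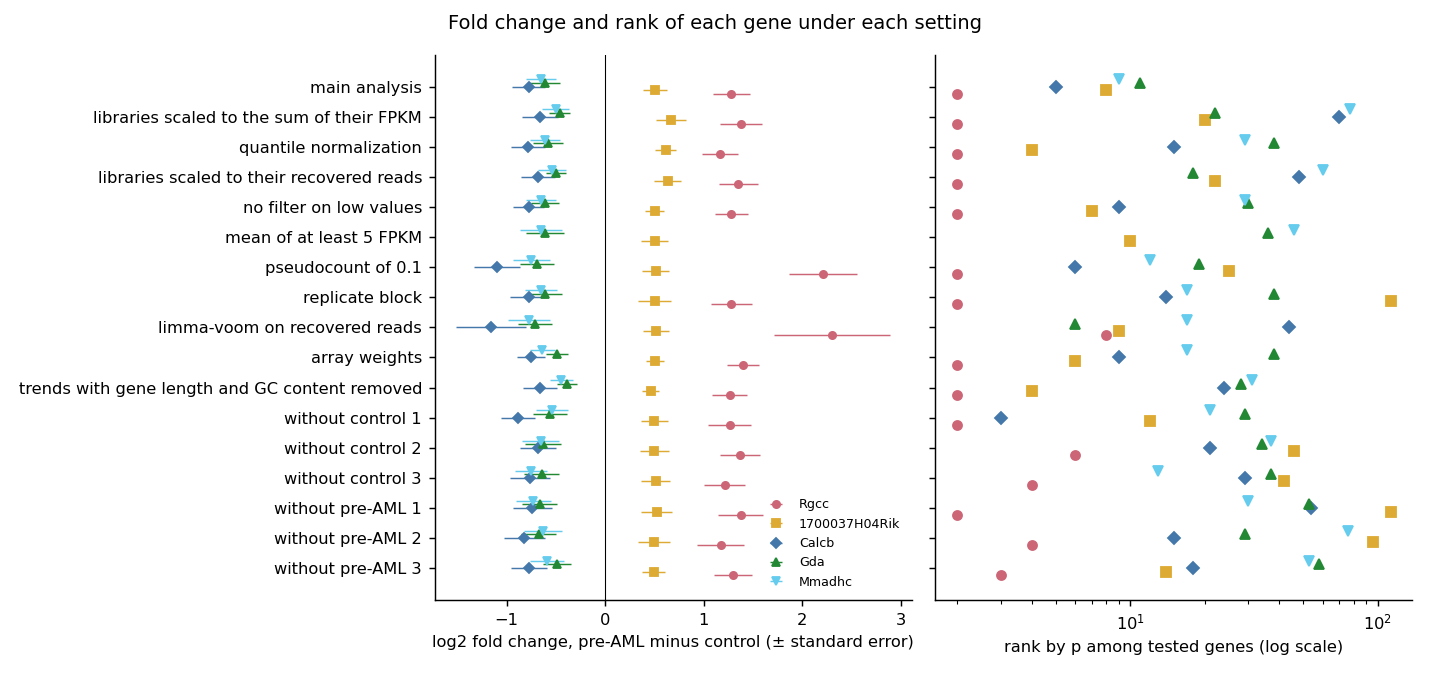
Log2 fold change with its standard error (left, horizontal axis) and rank by p among tested genes (right, horizontal log axis) of each gene under the main analysis and 16 alternatives (vertical axis). No gene crosses 0 in the left panel, and in the right panel Rgcc stays between 2 and 8 while 1700037H04Rik reaches 113.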

How the data were processed

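RNA-seq libraries of platelets (3 control, 3 pre-AML) were used. The authors mapped reads to mm10 with STAR, used DESeq2 for their own comparison and deposited FPKM values per gene and library. The counting program and annotation are not given in the sources used here. Columns were matched to samples by name, and groups were taken from the labels WT and AML and named after the paper. The members and the gene lists were chosen with earlier results of these data known.

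Values were compared as log2(FPKM + 1) for genes averaging 1 FPKM or more, by limma-trend (R 4.3.3, limma 3.58.1), two-sided and with no covariate, with Benjamini-Hochberg adjustment over all tested genes and a threshold of 0.05. The fit was run on simulated data as a check of the code. These held no outlying library like pre-AML 3, so the check does not cover the present data. Since FPKM values are not counts, no count model was the main test. Exon lengths, positions and GC content came from GENCODE M21 on GRCm38, the same build as mm10, for 14912 of 14975 genes. Reads are FPKM times exon length divided by the value of 1 read, with exact Poisson limits (Python 3.11.15, scipy 1.17.1). SMART-Seq2 libraries do not mark strand. Depth was 11936010 to 17778985 reads on listed genes, and 3 reads on 2 kb correspond to 0.0643 to 0.128 FPKM.

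Named genes were the members, the first 10 ranks, the 3 genes with the most similar pattern to each member, the 3 most abundant genes of each pathway list and any called, the nearest listed genes, and the 2 most abundant of each marker list. Pnp, Lmbrd1, Zfand5, Trp53 and other list members with values were added after their values were seen. Alternatives were other scalings, filters and pseudocounts, the replicate number as a block, limma-voom on recovered reads, library weights, removal of GC and length trends by loess, and leaving out each library. The pathway lists without pre-AML 3 and without these trends were added after seeing the data. Same-numbered libraries did not deviate together from their group means (correlations across genes of -0.043, -0.12 and -0.17), so the numbers were not taken as pairs.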

Additional observations from a re-analysis of the deposited data

How the results depend on the processing

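Of the tested genes, 1 was called higher and 0 lower in pre-AML platelets, and the 5 genes described were not among the calls. No gene was called higher (0) with libraries scaled to the sum of their FPKM or to their recovered reads, with no filter on low values, with a mean of at least 5 FPKM, with limma-voom on recovered reads, or after removal of loess trends on exon length and GC content. With array weights, whose estimation stopped before its tolerance was met, 2 were called, and Rgcc was the second. Leaving out each library gave 0 to 2 calls, with 0 without control 1, control 3 or pre-AML 1 and 2 without pre-AML 3. Lower calls were 0 in every alternative run. With the replicate number as a block (replicate block), 1 gene was called higher and 0 lower. No sample correlated best with its own number.

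The members' log2 differences moved by more than the spread between replicates in 2 of 15 alternatives for Rgcc (2.21 with a pseudocount of 0.1 and 2.30 with limma-voom), 4 of 16 for 1700037H04Rik (between 0.46 and 0.67), 2 of 15 for Calcb (-1.10 and -1.16, in the same settings as Rgcc), and 1 of 16 each for Gda (-0.38) and Mmadhc (-0.44), both with the GC and length trends removed. None reversed. Leaving out each library gave 1.17 to 1.37 for Rgcc, 0.49 to 0.52 for 1700037H04Rik, -0.88 to -0.68 for Calcb, -0.68 to -0.49 for Gda and -0.75 to -0.54 for Mmadhc. Of the pathway lists, counts at an unadjusted p under 0.05 changed only for lower purine genes, from 2 to 3 without pre-AML 3 (Guk1 joined Nt5c3 and Impdh1). Counting error alone gives Rgcc a coefficient of variation of 42.7% in the controls and 15.9% in pre-AML platelets, and Calcb 14.5% and 18.7%. The values seen were 33.4% and 19.7% for Rgcc and 18.8% and 9.96% for Calcb. The values of Rgcc in the controls and Calcb in pre-AML platelets were thus below what counting alone gives. An SD of 3 libraries is imprecise, so nothing is read from this.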
